A study of Mus musculus with 8 samples.

Results

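The Cyp2b and Cyp3a genes encode cytochrome P450 enzymes of the endoplasmic reticulum that oxidize drugs, steroids and bile acids. The 10 members described here, Cyp2b9, Cyp2b10, Cyp2b13, Cyp3a11, Cyp3a13, Cyp3a16, Cyp3a25, Cyp3a41a, Cyp3a44 and Cyp3a59, were chosen by gene symbol as classic target families of the nuclear receptors CAR and PXR, and they made up 10 of the 17810 genes in the deposited table. RNA-Seq was analyzed in whole livers from 4 WT and 4 HKO male littermates, 5 months of age, given a high-fat diet lacking choline (CD-HFD) for 3 months after they reached 8 weeks. HKO mice carried loxP-flanked miR-33 alleles together with Cre driven by the Albumin promoter, which removes the microRNA from hepatocytes. The level of miR-33 itself was not analysed here. Whether the WT littermates carried the floxed alleles is not given in the sources used here, and no group on a control diet was analysed here. The comparison asks how the liver transcriptome in diet-induced steatosis differs when hepatocytes lack miR-33.

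CAR and PXR are ligand-sensing receptors that pair with RXR on repeated hexamers in DNA and induce Cyp2b10 and Cyp3a11 when bile acids or foreign compounds accumulate, so these genes are commonly read as their reporters. A separate group, Cyp2b9, Cyp2b13, Cyp3a16, Cyp3a41a and Cyp3a44, is known for higher expression in female than in male mouse liver, set by the pattern of growth hormone secretion, and Cyp2b10 shares that bias more weakly. The families arose by tandem duplication, so the Cyp2b members lie in a cluster on chromosome 7, the Cyp3a members on chromosome 5, and neighbors resemble each other closely.

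The deleted microRNA and the promoters of 7 members are shown because the families were compared by sequence as well as by level. Mature miR-33-5p, from RefSeq (GRCm38.p6, chr15:82198127-82198147, plus strand, within an intron of Srebf2), is printed with its seed, bases 2 to 8, in capitals.
miR-33-5p: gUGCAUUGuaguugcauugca
The word CAATGCA pairs with this seed, and AATGCAA pairs with all but its last base and ends in an A opposite the first base of the microRNA. Both words had 0 matches in the annotated 3′ untranslated regions of the 10 members in GENCODE M21 transcripts. Of 11536 tested genes with such a region of at least 50 bases, 16.2% held a match. The longest annotated region of each gene was searched, and other kinds of site were not.

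The promoter stretches run from 200 to 81 bases before the annotated start site, 5′ to 3′ on the strand of the gene. Capitals mark the nuclear receptor hexamers AGGTCA and AGTTCA on either strand, the reverse of which reads TGACCT and TGAACT. Coordinates follow RefSeq on GRCm38.p6: Cyp2b9 chr7:26173209-26173328 (plus), Cyp2b13 chr7:26061295-26061414 (plus), Cyp2b10 chr7:25897458-25897577 (plus), Cyp3a11 chr5:145879935-145880054 (minus), Cyp3a25 chr5:146009699-146009818 (minus), Cyp3a59 chr5:146079058-146079177 (plus) and Cyp3a13 chr5:137921700-137921819 (minus).
Cyp2b9: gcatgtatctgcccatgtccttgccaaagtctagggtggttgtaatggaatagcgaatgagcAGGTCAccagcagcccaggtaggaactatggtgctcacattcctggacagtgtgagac
Cyp2b13: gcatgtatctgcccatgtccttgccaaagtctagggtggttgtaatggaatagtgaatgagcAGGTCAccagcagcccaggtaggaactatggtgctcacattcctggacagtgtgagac
Cyp2b10: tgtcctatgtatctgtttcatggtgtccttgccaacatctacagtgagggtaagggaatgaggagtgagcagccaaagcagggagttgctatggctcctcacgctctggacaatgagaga
Cyp3a11: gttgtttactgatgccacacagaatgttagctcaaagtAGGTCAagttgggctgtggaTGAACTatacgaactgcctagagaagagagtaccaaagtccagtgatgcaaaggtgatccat
Cyp3a25: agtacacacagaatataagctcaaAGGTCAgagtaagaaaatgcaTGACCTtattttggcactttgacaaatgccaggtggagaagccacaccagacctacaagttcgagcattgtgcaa
Cyp3a59: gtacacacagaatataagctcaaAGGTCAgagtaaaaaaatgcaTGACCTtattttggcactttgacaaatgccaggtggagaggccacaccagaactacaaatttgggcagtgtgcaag
Cyp3a13: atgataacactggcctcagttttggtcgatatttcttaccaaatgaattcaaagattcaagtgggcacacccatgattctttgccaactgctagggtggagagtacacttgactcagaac
Over the whole 300-base promoter window, Cyp2b9 and Cyp2b13 were 99.3% identical and carried AGGTCA at the same place, whereas Cyp2b9 and Cyp2b10 were 70.1% identical and the Cyp2b10 window held neither word. Cyp3a25 and Cyp3a59 were 95.7% identical and both carried a pair of AGGTCA words on opposite strands. Cyp3a11 carried AGGTCA and, on the other strand, AGTTCA. Cyp3a13, which lies apart from the other Cyp3a members on chromosome 5, and Cyp3a16 held neither word. AGGTCA occurred in 16.3% and AGTTCA in 14% of all 32851 RefSeq promoter windows of the same length. The STAT site TTCNNNGAA occurred in 8.30% of those windows and in 0 of the 10 members. A match is a string of letters and was not tested as a binding site, and more distant elements were not searched.

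The libraries held between 12174339 and 18735785 estimated counts. As an approximate upper bound for a count of 0, 3 counts were used, which corresponded to 0.149 to 0.255 CPM (counts per 1000000 of the TMM-scaled library total). Intervals of this kind cover counting error only. Hepatocyte markers were abundant in all livers, with summed levels of 75611 to 109698 CPM for WT and 65417 to 119463 CPM for HKO livers. Summed markers of macrophages, T cells, B cells, endothelial and stellate cells overlapped between genotypes. Cholangiocyte markers summed to 44.6 CPM in HKO liver 2 and 16.4 CPM in HKO liver 3 and to 6.17 to 8.94 CPM in the other livers. The 3 acinar pancreas markers summed to 3.84 to 7.49 CPM for WT and 9.51 to 18.5 CPM for HKO livers, with Prss2 at or under 3 counts in every liver. Adipocyte and enterocyte markers summed to at most 1.42 and 1.39 CPM. The part of these markers in the results below was not tested. In the column names the running numbers of the HKO libraries all precede those of the WT libraries, so order and genotype cannot be told apart. As these are bulk livers, fewer cells of a type and less RNA per cell cannot be told apart either.

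**Figure D1:**
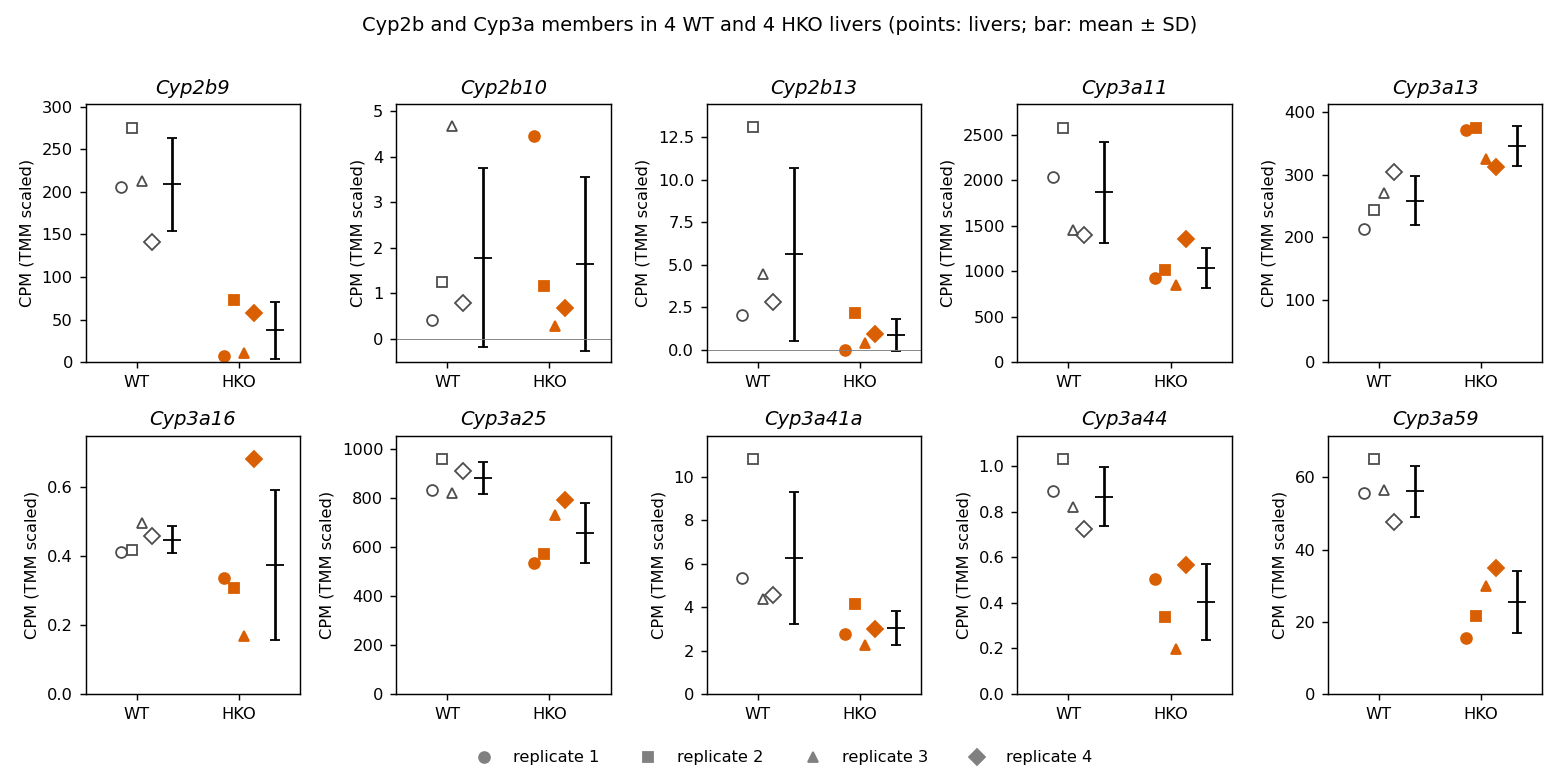
CPM (TMM scaled) of the 10 members in each liver, with WT as open and HKO as filled symbols, the marker shape giving the replicate number and the bar the mean ± SD (n = 4). Each panel has its own linear axis. HKO livers lie below all WT livers for Cyp2b9, Cyp3a11, Cyp3a25, Cyp3a41a, Cyp3a44 and Cyp3a59 and above them for Cyp3a13.

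In HKO livers 8 of the 9 members that could be tested had lower levels than in WT livers and 1, Cyp3a13, had a higher level. The median log2 fold change of the 9 was -1.05, against 0.01 over all 12395 genes tested. By edgeR's quasi-likelihood test, adjusted over all genes by the Benjamini-Hochberg method, 1 member passed an adjusted p of 0.05, Cyp3a59, which fell. For all genes the share that passed was 5.03% in either direction and 3.37% for lower levels, so nothing about the members is read from a single call. For 6 of the 9 members every HKO liver lay below every WT liver, against 7.21% of all genes tested, and for 1 every HKO liver lay above, against 5.36%. Of the 6, Cyp3a44 reached 10 estimated counts in WT livers only, so its entry into the test depended on the level compared. With 10 counts required in every liver, 6 members were tested, 5 with lower and 1 with higher levels. The members were chosen with earlier results of these data known, so these counts are a description. DESeq2 called 6 members, Cyp2b9, Cyp3a11, Cyp3a13, Cyp3a25, Cyp3a41a and Cyp3a59, with 7.67% of all genes called, and limma-voom called 3, Cyp2b9, Cyp3a11 and Cyp3a59, with 4.86% of all genes called. The direction of the 9 fold changes was the same by all 3 models and under all 4 scalings, as the plot of fold changes shows for the models.

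**Figure D2:**
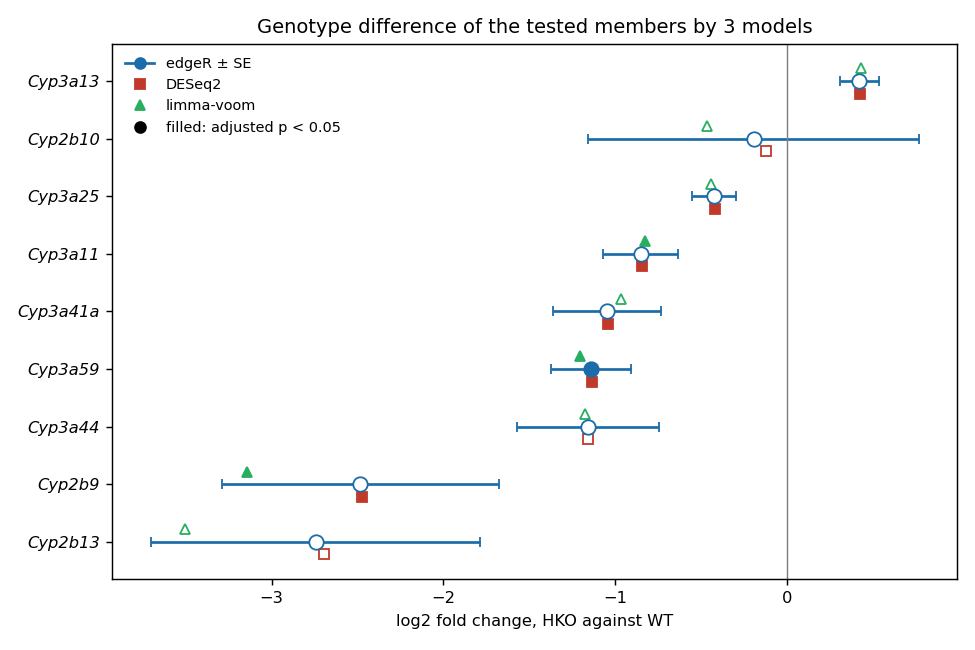
Log2 fold change of HKO against WT livers (x axis) for the 9 tested members (y axis) by edgeR (circles, with SE), DESeq2 (squares) and limma-voom (triangles), filled where the adjusted p was under 0.05. All 3 models placed 8 members left of 0 and Cyp3a13 right of it, and they parted in which members passed the threshold.

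Cyp2b9, the predominant Cyp2b transcript in these livers, was measured at 206, 275, 213 and 142 CPM in WT livers 1 to 4 and at 7.83, 72.8, 10.6 and 58.5 CPM for HKO livers 1 to 4. The genotypes did not overlap, and the HKO livers fell into a pair near 10 and a pair above 50, so that their highest value was 9.30 times their lowest, against 1.94 times in WT livers. The means were 209 ± 54.5 and 37.4 ± 33.1 CPM (SD, n = 4 each), 5.58 times higher in WT. The log2 fold change was -2.48 (SE 0.81) with an adjusted p of 0.16 by edgeR, 0.0173 by DESeq2 and 0.0162 by limma-voom. Among the 8 edgeR fits that each left out 1 liver the fold change ranged from -3.03 to -2.14 and the lowest adjusted p was 0.1498.

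Cyp2b13, a female-biased gene that shares 92.7% of its coding sequence with Cyp2b9, was measured far lower, at 2.08, 13.1, 4.46 and 2.84 CPM for WT and at 0, 2.18, 0.396 and 0.940 CPM for HKO livers. HKO liver 2 lay above WT liver 1, so the genotypes overlapped. For the value of 0 in HKO liver 1 the approximate upper bound was 0.202 CPM, which leaves out error in sharing reads between paralogs. Its log2 fold change was -2.74 (SE 0.96) with an adjusted p of 0.175 by edgeR's quasi-likelihood test. It was -1.91 without WT liver 2 and -3.74 without HKO liver 2. Cyp2b13 and Cyp2b9 were both lowest in HKO liver 1 among HKO livers and highest in WT liver 2 among WT livers. Of the 75-base windows along the transcripts, 7.66% of Cyp2b13 and 5.16% of Cyp2b9 occurred in another member of the family, and at 45 bases 22.7% and 12.6% did. Each had fractional counts in 7 livers. The part of shared reads in their common order was not tested. The ratio of Cyp2b9 to Cyp2b13 ranged from 21.0 to 98.8 in WT and from 26.9 to 62.2 in the 3 HKO livers with Cyp2b13 counts.

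Cyp2b10, the gene most used to report CAR activity, showed no separation by genotype. Its levels were 0.413, 1.26, 4.67 and 0.789 CPM for WT and 4.45, 1.16, 0.282 and 0.681 CPM for HKO livers. One liver of each genotype, WT liver 3 and HKO liver 1, stood above the rest at a similar level, and the counts behind these values were 5 to 94 per liver. The log2 fold change was -0.19 (SE 0.96) with an adjusted p of 0.944 by edgeR. It became 0.98 without WT liver 3 and -1.46 without HKO liver 1, so the data do not set its direction. Summed endothelial markers were also highest in those livers, at 119 and 136 CPM, but they were nearly as high in HKO liver 4, at 113 CPM, where Cyp2b10 was 0.681 CPM. Their part in the Cyp2b10 values was not tested.

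Summed over the 4 Cyp2b rows of the table, which removes the split of reads between paralogs, the family gave 216 ± 59.2 CPM for WT and 40.0 ± 33.2 CPM for HKO livers (SD, n = 4), 5.41 times more in WT. Cyp2b9 made up at most 98.8% of it in WT livers, with a mean of 96.8%, and 94.0 to 97.3% in 3 HKO livers. In HKO liver 1, where the family summed to 12.3 CPM, Cyp2b9 made up 63.7% and Cyp2b10 36.3%. The fourth row, Cyp2b23, held 2 counts in WT liver 2 and 0 in the other livers.

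**Figure D3:**
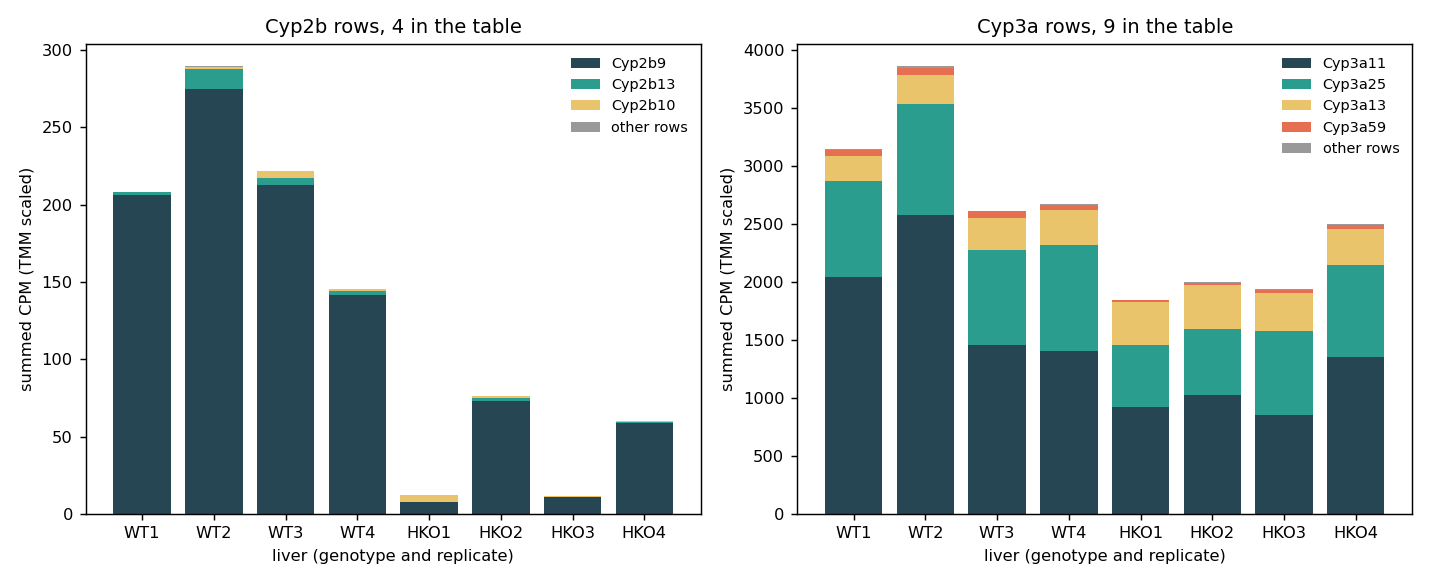
Summed CPM (TMM scaled) of the Cyp2b rows (left) and Cyp3a rows (right) in each liver, stacked by gene on linear axes from 0. Cyp2b totals run from 145 to 289 CPM for WT and from 11.3 to 76.1 CPM for HKO livers, and Cyp3a totals from 2611 to 3855 CPM for WT and from 1846 to 2493 CPM for HKO livers.

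Cyp3a11, the principal drug- and bile acid-oxidizing Cyp3a enzyme of mouse liver and the usual reporter of PXR, was the most abundant member. It was measured at 2036, 2576, 1457 and 1401 CPM for WT and at 923, 1020, 847 and 1351 CPM for HKO livers. The genotypes did not overlap, but HKO liver 4 came within 50 CPM of WT liver 4. The means were 1868 ± 553 and 1035 ± 222 CPM (SD, n = 4), 1.80 times higher in WT. Its log2 fold change was -0.85 (SE 0.22), and its adjusted p was 0.0592 by edgeR, 0.000872 by DESeq2 and 0.044 by limma-voom. In edgeR fits that left out 1 liver it passed the threshold without WT liver 4, at 0.0437, and without HKO liver 4, at 0.0423, and in no other.

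Cyp3a25, a second abundant hepatic Cyp3a enzyme, was measured at 833, 957, 820 and 911 CPM for WT and at 533, 573, 729 and 790 CPM for HKO livers. All HKO livers lay below all WT livers, with HKO livers 3 and 4 nearest to them. The log2 fold change was -0.42 (SE 0.13) with an adjusted p of 0.0829 by edgeR and 0.0278 by DESeq2.

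Cyp3a59, a neighbor of Cyp3a25 whose coding sequence is 97.5% identical to it, was measured at 55.6, 65.0, 56.5 and 47.7 CPM for WT and at 15.5, 21.6, 30.0 and 34.8 CPM for HKO livers. The means were 56.2 ± 7.07 and 25.5 ± 8.59 CPM (SD, n = 4), a difference of 2.20 times. Its log2 fold change was -1.14 (SE 0.23) with an adjusted p of 0.0306 by edgeR, 9.49e-06 by DESeq2 and 0.0112 by limma-voom. Leaving out 1 liver at a time, the edgeR call was kept in 4 of 8 fits and lost without WT liver 1 (adjusted p = 0.0861), WT liver 2 (0.0986), WT liver 3 (0.0691) or HKO liver 2 (0.0753), while the fold change stayed between -1.33 and -0.96.

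The 2 neighbors did not differ by the same factor. The ratio of Cyp3a59 to Cyp3a25 was 0.0667, 0.0679, 0.0690 and 0.0523 in WT and 0.0292, 0.0378, 0.0411 and 0.0441 in HKO livers, and the genotypes did not overlap. The ratio rests on how the authors' expectation-maximization step shared reads. Of the 75-base windows along the transcripts, 10.7% of Cyp3a25 and 10.8% of Cyp3a59 occurred in another member of the family, and at 45 bases 31.2% and 33.0% did. The protocol names both 45 cycles and 75-base reads, so the read length is uncertain.

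Cyp3a13, an outlying family member that is expressed in intestine as well as in liver, went against the rest. It was measured at 213, 244, 271 and 305 CPM for WT and at 371, 375, 325 and 312 CPM for HKO livers. Every HKO liver lay above every WT liver, though WT liver 4 and HKO liver 4 were separated by less than 10 CPM. The means were 258 ± 39.4 and 346 ± 31.8 CPM (SD, n = 4), 1.34 times higher in HKO. The log2 fold change was 0.42 (SE 0.11), and its adjusted p was 0.0567 by edgeR, 0.00935 by DESeq2 and 0.0622 by limma-voom. Without WT liver 4 the edgeR call was made, at 0.0253. Cyp3a13 shared 0 of its 75-base windows with other members and 74.6 to 76.5% of its coding sequence with the other Cyp3a members, and its counts were whole numbers in every liver, so its values do not depend on a split of reads within the family.

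Within genotypes, Cyp3a13 and Cyp3a11 also stood in a different order. WT liver 1 was lowest for Cyp3a13 and WT liver 4 highest, whereas WT liver 4 was lowest for Cyp3a11. In HKO livers Cyp3a13 was lowest and Cyp3a11 highest in HKO liver 4. The ratio of Cyp3a11 to Cyp3a13 was 7.52 ± 2.98 in WT and 3.04 ± 0.866 in HKO livers (SD, n = 4) and ranged from 4.59 to 10.5 and from 2.49 to 4.33.

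The female-biased Cyp3a members were low in these male livers. Cyp3a41a was measured at 5.35, 10.8, 4.37 and 4.54 CPM for WT and at 2.74, 4.14, 2.25 and 3.01 CPM for HKO livers, without overlap. Its log2 fold change was -1.05 (SE 0.32) with an adjusted p of 0.09 by edgeR and 0.032 by DESeq2. The listed extent of this row, chr5:145558664-145720137, takes in the neighboring Cyp3a41b, whose coding sequence is 99.9% identical, and 95.3% of its 75-base windows occurred in another member. Cyp3a41b had a row of its own with under 1 count in every liver, so the Cyp3a41a row can hold reads of both genes.

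Cyp3a44 was measured at 0.890, 1.03, 0.821 and 0.725 CPM for WT and at 0.504, 0.340, 0.198 and 0.568 CPM for HKO livers. All HKO livers lay below all WT livers, on 3.52 to 16.5 estimated counts per liver. Its log2 fold change was -1.16 (SE 0.41) with an adjusted p of 0.143 by edgeR. Cyp3a16, known as a fetal and female form, was at 3 to 10.01 estimated counts per liver and was not tested in the fit. Its levels overlapped, at 0.414 to 0.498 CPM for WT and 0.169 to 0.682 CPM for HKO livers, with p = 0.543 in a two-sided exact permutation test (n = 4 per genotype, smallest possible p 0.0286 over 70 allocations). Cyp3a57, a row of the family outside the members, was at 2 to 11 counts, with 0.497 to 0.909 CPM for WT and 0.169 to 0.309 CPM for HKO livers.

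Summed over the 9 Cyp3a rows, the family gave 3071 ± 575 CPM for WT and 2067 ± 291 CPM for HKO livers (SD, n = 4), 1.49 times more in WT. Cyp3a13 made up 6.34 to 11.4% of the sum in WT and 12.5 to 20.1% in HKO mice, whereas the share of Cyp3a11 was 59.9 ± 6.91% and 49.8 ± 4.37% with overlap and that of Cyp3a25 was 29.2 ± 4.29% and 31.7 ± 4.20%.

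Per kilobase of the transcript with the longest coding sequence, the order of mean levels in WT livers was Cyp3a11 at 797 CPM per kb, Cyp3a25 at 440, Cyp2b9 at 111, Cyp3a13 at 87.4 and Cyp3a59 at 28.2, followed by 5 members between 0.259 and 3.04. In HKO livers Cyp3a13, at 117 CPM per kb, stood above Cyp2b9, at 19.95. In WT livers the ranges of Cyp2b9 and Cyp3a13 overlapped on this scale, at 75.5 to 147 and 72.0 to 103 CPM per kb, so their order is not set, and the ranges of Cyp3a11 and Cyp3a25 did not overlap. The WT ranges of the low members Cyp2b13 and Cyp3a41a also overlapped, at 1.11 to 7 and 2.12 to 5.25 CPM per kb, so their order is not set either.

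Single livers stood out across members. WT liver 2 was the highest WT liver for 7 of the 10 members, Cyp2b9, Cyp2b13, Cyp3a11, Cyp3a25, Cyp3a41a, Cyp3a44 and Cyp3a59, and the lowest for 0. It also had the highest Nr1i2, the gene for PXR, at 68.1 CPM while the other WT livers lay at 51.7 to 53.4 CPM. Of 82 groups of 4 livers over the named genes, 4 had 1 liver this far from the rest by Dixon's criterion. Chance alone gives about 4.1. Several of the 7 members can share reads, so they are not separate observations. The part of Nr1i2 in their levels was not tested. Among HKO livers, HKO liver 3 was lowest for 5 members and HKO liver 1 for 4, and HKO livers 2 and 4 were highest for 9 between them. Without WT liver 2 the median log2 fold change of the tested members was -0.65, and 0 of them passed the threshold by edgeR, as was also the case without WT liver 1, WT liver 3 or HKO liver 2.

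The receptor genes themselves did not pass the test. Nr1i2 was 56.2 ± 7.93 CPM for WT and 47.4 ± 3.22 CPM for HKO livers, with a log2 fold change of -0.24 (SE 0.10) and an adjusted p of 0.211 by edgeR. Nr1i3, the gene for CAR, was 85.5 ± 10.04 and 79.3 ± 9.59 CPM with a log2 fold change of -0.11 (SE 0.11) and an adjusted p of 0.64 by edgeR, and their shared partner Rxra was 260 ± 28.7 and 302 ± 7.02 CPM with a log2 fold change of 0.21 (SE 0.09) and an adjusted p of 0.193 by edgeR. All 3 overlapped between genotypes. Over all genes tested, edgeR called 5.03% in either direction. Of the 16 tested genes reported from the list of receptors, partners and cofactors, 2 rose and 0 fell by edgeR. They were Foxa3, a hepatocyte transcription factor, with a log2 fold change of 1.05, and Hnf4a, a nuclear receptor of hepatocyte identity, with 0.36 (edgeR adjusted p = 0.00433 and 0.0406). The Foxa3 call was kept in 8 of 8 edgeR fits that left out 1 liver and under total count scaling. The Hnf4a call was lost in 7 of the 8, with adjusted p up to 0.126, and under total count scaling (0.151 by edgeR). Rxrg, another RXR gene of the list, had a log2 fold change of -0.78 with every HKO liver below every WT liver, and its adjusted p was 0.0713 by edgeR and 0.0415 by DESeq2. Foxa3 was 14.6 to 20.4 CPM for WT and 27.8 to 42.8 CPM for HKO livers.

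P450 enzymes take electrons from NADPH-P450 reductase, encoded by Por, and need haem. Of 14 tested genes of electron transfer and haem supply, 0 passed edgeR's threshold and 0 that of DESeq2. Over all genes these called 5.03% and 7.67%. Of the 14 genes 3 had higher and 11 lower levels, with a median log2 fold change of -0.19. Over all genes tested 48.4% had a lower level. For 2 of the 14 every HKO liver lay below every WT liver, against 7.21% of all genes tested. Por varied widely among HKO livers, from 104 to 299 CPM, around WT values of 109 to 182 CPM, with a log2 fold change of 0.44 (SE 0.33) and an adjusted p of 0.537 by edgeR.

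Other known targets of CAR and PXR went both ways. Of 31 tested, 5 rose and 5 fell by edgeR, and 10 had higher and 21 lower levels, with a median log2 fold change of -0.21. Over all genes tested, edgeR called 5.03% in either direction, and 48.4% had a lower level. The calls numbered 5 higher and 8 lower by DESeq2 and 5 and 7 by limma-voom, which called 7.67% and 4.86% of all genes. Those that rose were the carboxylesterase Ces2a (log2 fold change 0.71), the sulfotransferase Sult1d1 (0.63) and Cyp2c37 (0.95), Cyp2c50 (0.95) and Cyp2c54 (2.25), members of the Cyp2c family. Those that fell were the aldehyde dehydrogenases Aldh1a1 (-0.57) and Aldh1a7 (-0.69), the glutathione transferase Gsta1 (-3.84), the glucuronosyltransferase Ugt1a9 (-2.67) and the steroid hydroxylase Cyp2a4 (-3.51). Gsta1 was 17.7 ± 6.06 CPM for WT and 1.22 ± 1.13 CPM for HKO livers (SD, n = 4), and Ces2a 61.6 ± 9.98 and 101 ± 13.0 CPM. Of these 10 genes all but Sult1d1 had fractional counts in at least 4 livers, so part of their reads also fitted other genes, which were not identified. Over fits without 1 liver the calls numbered 2 to 6 higher and 1 to 6 lower, with 2 and 1 without WT liver 2 and 2 and 1 without HKO liver 4.

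Genes with a sex bias in mouse liver lay on either side of 0, as the plot of the lists shows. The lists were chosen with earlier results of these data known, so their counts are a description and not an independent test. Of the 5 tested members known as female-biased, all had lower levels in HKO livers, and 0 passed edgeR's threshold. Among them the direction of Cyp2b10 was not set, and it was higher without WT liver 3, HKO liver 3 or HKO liver 4. For 3 of the 5 every HKO liver lay below every WT liver, against 7.21% of all genes tested. Of the 3, Cyp3a44 reached 10 estimated counts in WT livers only. With 10 counts required in every liver, 2 of the 5 were tested, and 2 had lower levels. Over all genes tested, 48.4% had a lower level and 3.37% fell by edgeR. Of 9 tested female-biased genes outside both families, 8 had lower levels and 3 fell by edgeR, Tox, a nuclear factor, with a log2 fold change of -0.70, the organic anion transporter Slc22a27 with -3.34, and Cyp2a4 with -3.51, which is also on the preceding list. Slc22a27 was 19.8 to 36.0 CPM for WT and 0.924 to 5.69 CPM for HKO livers. The median of the 9 was -1.41, with Prom1 the 1 gene above 0. Its log2 fold change of 3.12 (adjusted p = 0.314 by edgeR) rested on HKO liver 2, at 23.5 CPM, and was 0.28 without it. Summed cholangiocyte markers were also highest in that liver, at 44.6 CPM, and their part in the Prom1 value was not tested.

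Of 20 tested male-biased genes all 20 had a higher level in HKO livers, with a median log2 fold change of 1.49. This list too was chosen with earlier results of these data known. For 9 of them every HKO liver lay above every WT liver, against 5.36% of all genes tested. Some of the others spread widely among HKO livers. Ugt2b38, with a log2 fold change of 3.99, was at 0.909 to 136 CPM for HKO and 1.96 to 2.75 CPM for WT livers. By edgeR 3 rose, the urinary protein gene Mup3 (0.91), the complement gene C8a (0.72) and the glucuronosyltransferase Ugt2b1 (0.76). Of all 12395 genes tested 206 rose. By DESeq2 12 of the list were called, against 7.67% of all genes in either direction. Mup3 belongs to a large family of closely related genes, although its counts were whole in every liver, and C8a had fractional counts in all 8. The edgeR counts depended on single livers. The male-biased calls numbered 0 without WT liver 1 or WT liver 3 and 5 without WT liver 4, and the female-biased calls 0 without WT liver 1 or WT liver 2. Without HKO liver 3, 19 of the 20 male-biased genes had a higher level, with a median of 0.86. The median of the female-biased genes was -0.93 without that liver.

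**Figure D4:**
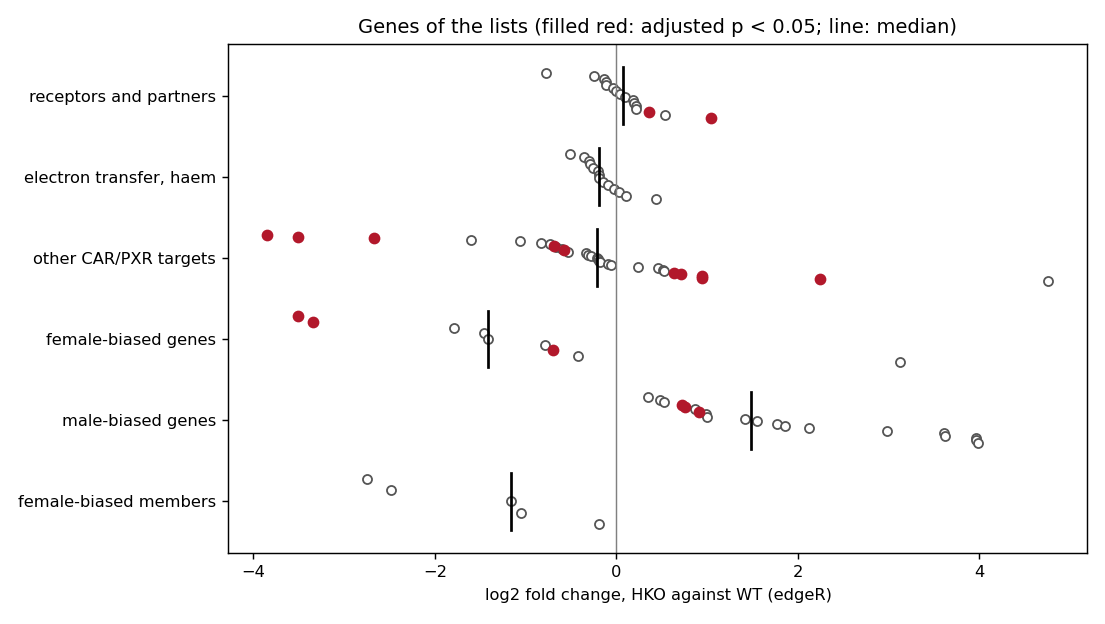
Log2 fold change of HKO against WT livers by edgeR (x axis) for each tested gene of 6 lists (y axis), as points that are filled red where the adjusted p was under 0.05, with a line at each median. The 20 male-biased genes all lie right of 0, and the 5 female-biased members and 8 of 9 other female-biased genes left of it. The lists were chosen with earlier results of these data known.

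The genes outside both families whose log2 CPM ran most like a member over the 8 livers are given as a description. The livers fall into 2 genotypes, which alone raises these correlations where a member differs between them. For Cyp2b9 they were Bloc1s5, a subunit of the organelle-biogenesis complex BLOC-1 (Pearson's r = 0.984, Spearman's rho = 0.976), Apoc2, the cofactor of lipoprotein lipase (0.977 and 0.952), and Acot9, a mitochondrial acyl-CoA thioesterase (0.974 and 0.857). For Cyp3a11 they were the transcription elongation cofactor Eaf1 (0.977 and 0.952) and the fatty acid oxidation enzymes Hadhb (0.974 and 0.976) and Ehhadh (0.973 and 1). Of these 6, Apoc2 fell, with a log2 fold change of -0.87 (edgeR adjusted p = 0.0101), and so did Ehhadh, with -0.78 (edgeR adjusted p = 0.00665). For Cyp2b10, which did not follow genotype, they were Srp54a of the signal recognition particle, the chromatin cofactor Atf7ip and Pik3r4, a regulatory subunit of a phosphoinositide kinase, with r of 0.962, 0.956 and 0.949. Each was the closest or among the 3 closest of all tested genes, which were searched for the highest value.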

How the data were processed

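RNA-Seq counts were analyzed for livers from 4 WT and 4 HKO mice. The authors deposited estimated counts per gene, made with STAR and the expectation-maximization quantification of Partek before any normalization, for 17810 genes, and versions are not given in the sources used here. Fractions arise where a read fits several genes, and 8 of the 10 members had a fractional count in at least 1 liver (30.9% of all genes). The protocol lists a kit for small RNA libraries beside removal of rRNA, so the library type is uncertain. Genotype and replicate number came from the labels, and p-values measure the spread between mice.

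Counts were rounded and analyzed with edgeR 4.0.16 in R 4.3.3 (TMM scaling, minimum count 10, robust quasi-likelihood test, genotype as the only term, Benjamini-Hochberg adjustment over 12395 genes). CPM used TMM-scaled totals, and log2 CPM a prior count of 2. The fit was repeated with limma-voom (limma 3.58.1), with DESeq2 1.42.0, with upper quartile, RLE and total count scaling, other filters, the legacy quasi-likelihood method, rounding down, the replicate block and each liver left out. One gene of the lists is not reported here. Family totals and lists were given as counts and medians without a test. Transcript identity used GENCODE M21 coding sequences, promoters and the microRNA came from RefSeq tables, all on GRCm38, and other steps used Python 3.11.15, pandas 2.3.3, scipy 1.17.1, Biopython 1.88 and matplotlib 3.10.9.

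All members are named, with other Cyp2b and Cyp3a rows that had counts, Nr1i2, Nr1i3, Rxra and Por, up to 5 called genes of each list by adjusted p, and the 3 genes most correlated with Cyp2b9, Cyp2b10 and Cyp3a11. Sult1d1, Ugt1a9, Cyp2c37, Cyp2c54 and Prom1 were named after their values were seen, to complete counts of 5 or fewer. Rxrg and Ugt2b38 were also named after their values were seen, to show limits of the counts of their lists. The members and lists were chosen with earlier results of these data known.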

Additional observations from a re-analysis of the deposited data

Results flagged for a closer look

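Of 82 groups of 4 livers examined over the named genes, 4 had 1 liver far from the other 3 by Dixon's criterion for 4 values, and chance alone gives about 4.1. Cyp3a41a was 10.8 CPM in WT liver 2 and 4.37 to 5.35 CPM in the other WT livers. Nr1i2 was 68.1 CPM in WT liver 2 and 51.7 to 53.4 CPM in the others. C8a was 728 CPM in WT liver 4 and 523 to 547 CPM in the others. Hnf4a was 471 CPM in WT liver 3 and 435 to 441 CPM in the others.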

How the results depend on the processing

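The count of members called moved from 1 to 6 by DESeq2, to 3 by limma-voom, 3 under total count scaling, 3 by the legacy quasi-likelihood method, 2 with the replicate block and 0 to 3 over the fits that each left out 1 liver. The count over all genes moved from 624 to 989 by DESeq2, 367 with a fold change above 1.5 added and 212 to 598 without 1 liver, the lowest without WT liver 2. Total count scaling called 740 genes, of which 83.9% were lower, against 67.0% of the calls with TMM. It called Cyp3a11, Cyp3a25 and Cyp3a59. The family totals, as differences of mean log2 CPM, were -2.89 (Cyp2b) and -0.56 (Cyp3a). They moved by less than the spread between livers under 3 other scalings, with the members alone and without 1 liver (-3.37 to -2.46 and -0.66 to -0.45). The models were not run on them.

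Replicate numbers belong to different mice, and same-numbered livers did not deviate together (correlations of -0.148 to 0.012, with 0 of 8 livers closest to their own number). With the replicate block 456 genes were called, Cyp2b13 (edgeR adjusted p = 0.0244) and Cyp3a41a (0.0348) among them and Cyp3a59 not (0.0731).

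Direction reversed for Cyp2b10 without 1 liver (log2 fold change -1.46 to 0.98), for Srp54a (-0.18 to 0.18), Pik3r4 (-0.13 to 0.0013) and Atf7ip (-0.066 to 0.23), and for Atf7ip under total count scaling (-0.018). The causes were not tested. Cyp3a44 gave no value without WT liver 3, where the expression filter removed it. Cyp3a16 had 3 to 10.01 and Cyp3a44 3.52 to 16.5 estimated counts per liver, so depth limits their precision.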
